A study of Mus musculus with 30 samples.

Results

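The 9 X-linked genes Eif2s3x, Eif1ax, Ddx3x, Fmr1, Rbm3, Rbm10, Rbmx, Nono and Hnrnph2, which encode translation factors and RNA-binding proteins, were followed through RNA-seq of mouse embryonic stem cells (mESCs) that carried 1 or 2 copies of them. They are 9 of the 55421 genes in the count table, found by matching the Ensembl identifiers of the table to these symbols in GENCODE M21. All 9 were among the 11703 genes with a mean above 5 TPM (transcript level scaled by length and depth) in the parental cells, and all 9 were annotated as protein coding. The question was what a cell made from 1 copy of each gene, compared with cells of the same kind that kept both copies.

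The female mESCs were hybrids of the 129/Sv and Cast/Ei strains, so that each X chromosome could be recognised by its sequence variants. Of the 30 libraries, 2 were XX wild type, 2 were XX Rnf12 +/- and 2 each were the XO genotypes XCastO129, which kept the Cast X, and X129OCast, which kept the 129 X. The other 22 came from 13 lines that carried a large heterozygous deletion on the 129 X and were also Rnf12 +/-, a mutation on the same X in the gene of an E3 ubiquitin ligase of X inactivation. The lines A, B, AB and C-G had 1 clone and 1 library each. The lines C, D, E, F, H, I, I-TEL, J and K had 2 libraries each, described as independent clones. Lines J and I-TEL came from a second Rnf12 +/- founder, and all deletion lines retained a neomycin resistance cassette at the deletion. Replicates of the XX and XCastO129 cells are likewise described as clones. Nothing of this kind is stated for X129OCast, whose 2 libraries may be technical replicates. The p-values there rest on the spread within all groups of the fit, and do not show how clones of X129OCast would differ. Rnf12 (Rlim in the annotation) stood at 210.9 and 193.1 TPM in XX wild type, at 77.6 and 79.7 TPM in XX Rnf12 +/- and at 50.4 to 143.8 TPM in the deletion lines. It had 71.2 and 77.8 TPM in XCastO129 but 3.53 TPM in both X129OCast libraries, so that X129OCast differed from the other genotypes in Rnf12 as well as in the X that it kept.

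Translation begins when the small ribosomal subunit, loaded with the initiator tRNA, scans a messenger RNA for its start codon. Eif2s3x encodes the gamma subunit of eIF2, which carries the initiator tRNA, Eif1ax encodes the scanning factor eIF1A, and Ddx3x encodes an RNA helicase that helps long structured leaders to be scanned. The other members bind RNA: Fmr1 encodes FMRP, a repressor of translation, Rbm3 a cold-inducible RNA-binding protein, Rbm10, Rbmx and Hnrnph2 regulators of splicing, and Nono a component of paraspeckles. Eif2s3x and Ddx3x have partners on the Y chromosome, Eif2s3y and Ddx3y, and both are known to escape X inactivation in mice, in which 1 X of each female cell is otherwise silenced. Undifferentiated female mESCs keep both X chromosomes active, so that loss of an X or of part of it takes away 1 of the copies.

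Depth followed 3 groups of libraries, taken here as library batches from the shared prefix of their names. The XX and deletion E libraries (6) held 20375194 to 21181405 counts, the 4 XO libraries 14998265 to 16494893, and the 20 libraries of the other deletion lines 8816184 to 10680026. Reads were single in the XO libraries and paired in the rest, and the study names different sequencers for them. The XO genotypes thus cannot be told apart from their batch, sequencer and read type. All 10 stem cell markers had a mean above 5 TPM, with a summed level of 10407 to 16813 TPM over the 30 libraries. Of 10 feeder fibroblast markers 6 had a mean above 5 TPM, and their list summed to 92.9 to 375 TPM. Of 6 primitive endoderm markers 1 had a mean above 5 TPM, and that list summed to 11.1 to 29.97 TPM. In these bulk samples, fewer cells of one type and less RNA per cell cannot be told apart.

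On mm10 the members were spread along the X chromosome, and each lay wholly inside at least 1 deletion. Rbm3 (ENSMUSG00000031167, chrX:8138975-8145880) was inside deletions A and AB. Ddx3x (ENSMUSG00000000787, chrX:13280970-13294052) was inside AB alone, since it lies between A and B. Rbm10 (ENSMUSG00000031060, chrX:20617503-20650901) was inside B and AB. Rbmx (ENSMUSG00000031134, chrX:57383530-57393036) was inside D and C-G, and Fmr1 (ENSMUSG00000000838, chrX:68678541-68717963) inside E and C-G. Eif2s3x (ENSMUSG00000035150, chrX:94188707-94212862) was inside F and C-G. Nono (ENSMUSG00000031311, chrX:101429318-101448591) was inside C-G alone. Hnrnph2 (ENSMUSG00000045427, chrX:134601179-134607060) was inside J and I-TEL, and Eif1ax (ENSMUSG00000067194, chrX:159372178-159389928) inside I-TEL alone. Lines C, H, I and K kept both copies of all 9 members. Genes inside one deletion share its libraries, so that members under AB, C-G or I-TEL are not independent measurements of a deletion.

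Members differed widely in level, on the TPM scale, which is per transcript length. In XX Rnf12 +/- the mean was highest for Ddx3x at 938 TPM, followed by Nono at 474 TPM and Eif1ax at 255 TPM. Rbm3 at 188 TPM and Eif2s3x at 181 TPM followed, and these neighbours overlapped between libraries, at 172.7 and 203.7 TPM for Rbm3 and 173.9 and 188.6 TPM for Eif2s3x. Hnrnph2 stood at 143 TPM, Fmr1 at 109 TPM and Rbm10 at 97.7 TPM, of which the last pair overlapped, at 101.5 and 116.9 TPM for Fmr1 and 89.2 and 106.2 TPM for Rbm10. Rbmx was lowest at 39.3 TPM. No call came from the Rnf12 mutation itself: 0 of 9 members passed when XX Rnf12 +/- was set against XX wild type (edgeR quasi-likelihood test with Benjamini-Hochberg adjustment over all genes, where 3.15% of genes tested were called), as by DESeq2, with 1 member, Hnrnph2, at an unadjusted p below 0.05 and log2 differences from -0.16 for Eif2s3x to 0.22 for Hnrnph2.

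With 1 copy deleted, all 9 members fell in total level, with log2 changes from -1.196 to -0.57, where a change of -1 corresponds to a level cut in proportion to the gene dose. Each comparison set the covering lines against the lines of the same library batch that kept both copies. The shares of genes called beside these values are over all 11703 genes, of which 477 were X-linked, so that most kept both copies. A fall in total level, or groups without overlap, is therefore not read as a trait of the members. The initiation factors came first. Eif2s3x stood at 101.2 TPM in C-G and at 109.4 and 87.2 TPM in the F clones, whereas the 17 libraries with both copies ranged from 158.8 to 206.7 TPM with a median of 183.9 (mean 182.5 ± 13.5, SD). The groups did not overlap, and the total change was -0.86 (SE 0.0685, adjusted p = 6.78e-07, edgeR quasi-likelihood test with Benjamini-Hochberg adjustment), in a contrast where 6.92% of all genes tested were called. Eif1ax stood at 108.8 and 119.7 TPM in the I-TEL clones and at 173.8 to 252.3 TPM, median 211.4, in 18 libraries with both copies. These groups were also separate, with a total change of -0.94 (SE 0.0596) and 18% of genes called.

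The helicase gene Ddx3x had a single covering library. In AB, the 1 library without its 129 copy, Ddx3x reached 409.7 TPM, 64.0% of the mean of 639.9 ± 110.9 TPM (SD, n = 19) in libraries with both copies. Those libraries ranged from 427.2 to 811.6 TPM with a median of 660.8, so that AB lay below all of them but close to the lowest, deletion D. The total change was -0.59 (SE 0.134, adjusted p = 0.0195, edgeR quasi-likelihood test with Benjamini-Hochberg adjustment; 3.29% of genes called).

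Fmr1, the repressor of translation, fell in both batches that held a covering line. C-G had 41.0 TPM, against 54.1 to 83.8 TPM with a median of 70.8 in the 19 libraries of its batch with both copies. The E clones had 45.8 and 56.9 TPM, against 101.5 to 116.9 TPM (mean 109.4 ± 7.03, SD) in the 4 XX libraries of their batch. Within each batch the groups were separate, while E with 1 copy overlapped the lowest deletion lines with both copies from the other batch. The mean change over both batches was -0.95 (SE 0.0907), with 4.32% of genes called.

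Among the RNA-binding and splicing members, Rbm3 had 82.2 TPM in A and 60.3 TPM in AB, against 112.6 to 206.3 TPM with a median of 167.8 in 18 libraries with both copies. It showed the steepest loss of the 9 genes, at -1.196 (SE 0.0899; 10.1% of genes called), and the AB value was 36.0% of the mean with both copies. Rbm10 had 61.3 TPM in B and 73.4 TPM in AB, against 77.8 to 114.7 TPM with a median of 101.05 in 18 libraries. It had the shallowest loss, at -0.57 (SE 0.0886, adjusted p = 0.00111, edgeR quasi-likelihood test with Benjamini-Hochberg adjustment; 6.83% called), with 60.5% of the mean left in B and 72.5% in AB. The groups did not overlap, though AB lay near the lowest library with both copies, deletion A.

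Rbmx had 16.3 TPM in C-G and 10.9 and 12.7 TPM in the D clones, against 15.5 to 40.5 TPM with a median of 29.98 in 17 libraries with both copies. It was the only member whose groups overlapped, by 1 library, B at 15.5 TPM, and its total change was -0.87 (SE 0.122; 8.24% of genes called). Nono had 209.6 TPM in C-G, 48.0% of the mean of 436.5 ± 20.1 TPM (SD, n = 19) with both copies, which ranged from 392.9 to 461.5 TPM with a median of 437.3. This was the narrowest range of the members in this batch, and its total change was -1.08 (SE 0.105; 2.02% called). Hnrnph2 had 52.7 and 58.0 TPM in I-TEL and 56.6 and 52.0 TPM in J, against 82.2 to 129.6 TPM with a median of 105.3 in 16 libraries. The 4 libraries with 1 copy lay close together and below all with both copies, at -0.94 (SE 0.0535; 35.8% called).

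**Figure D1:**
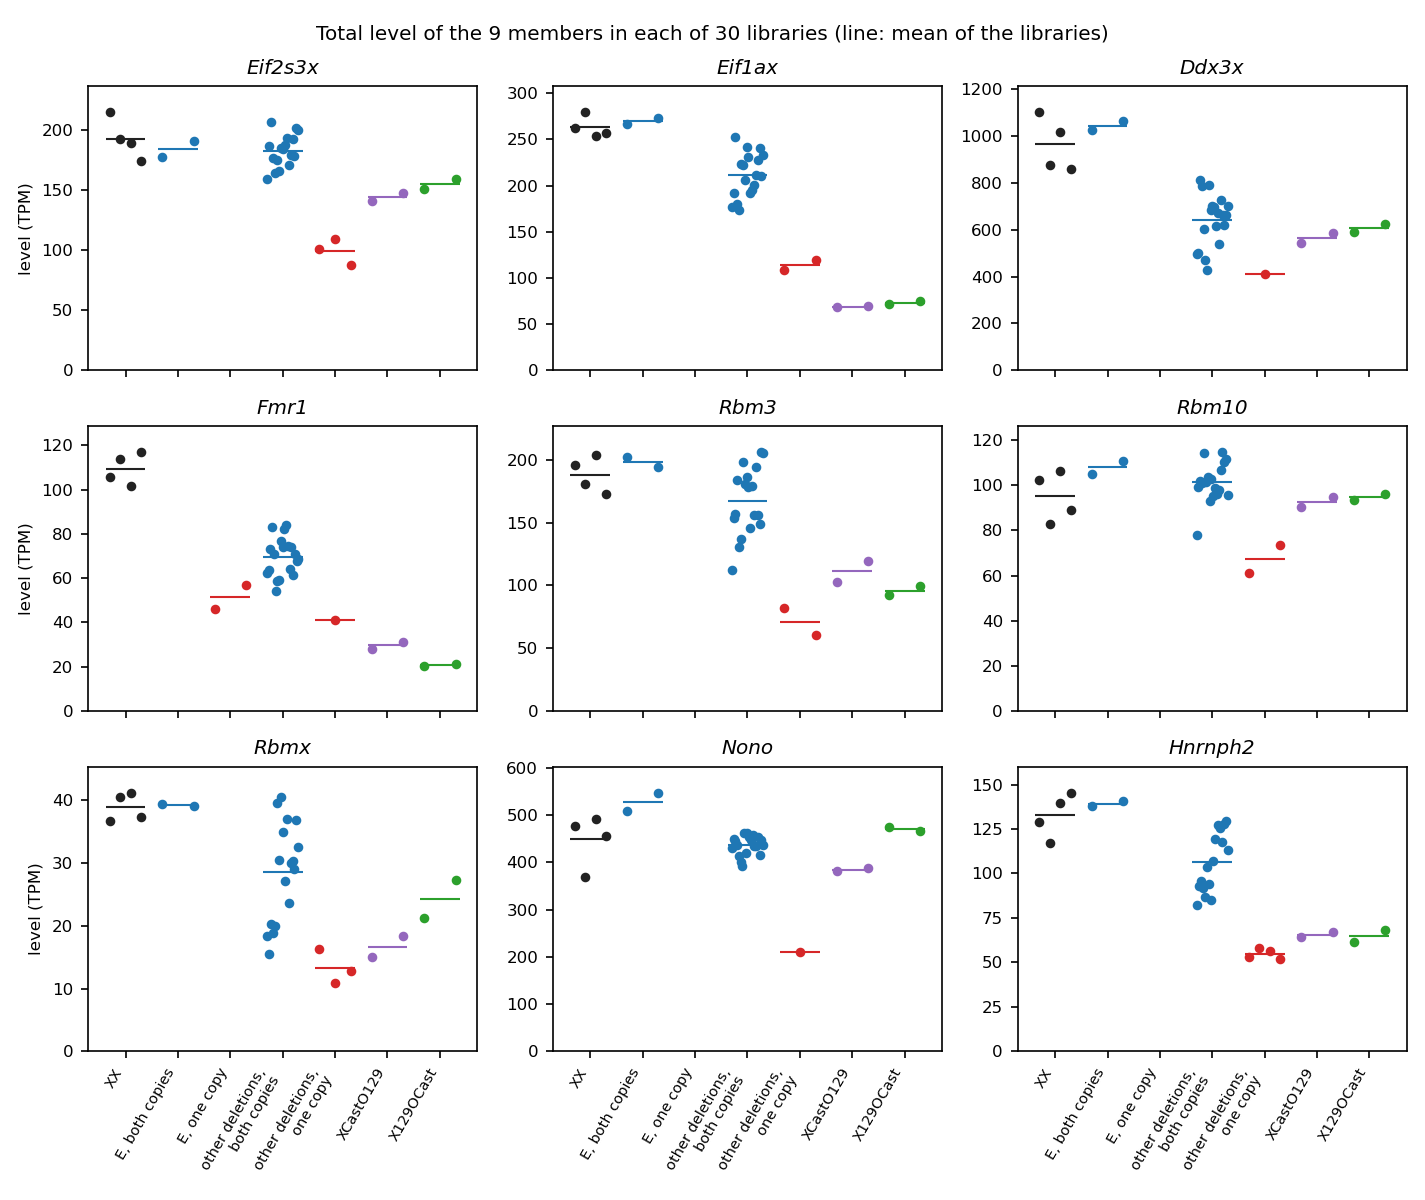
Levels of the 9 members in TPM (y axis, linear from 0) in each library, 1 panel per gene. Points are libraries grouped as XX, deletion E and the other deletion lines with both copies or 1 copy, XCastO129 and X129OCast, and lines are group means. Libraries with a covering deletion sit low in every panel, whereas the XO libraries sit near the XX libraries for Rbm10 and Nono and lowest of all for Fmr1 and Eif1ax.

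Per copy, only Rbm10 passed the test. On this scale the copy number enters the model, so that 0 means that the remaining copy gave as much as each copy in cells with both, and 1 means that it alone reached the level of both. Rbm10 was 0.43 higher per copy (95% interval 0.26 to 0.60, adjusted p = 0.00583, edgeR quasi-likelihood test with Benjamini-Hochberg adjustment), in a contrast where 6.2% of all genes tested (2.83% in this direction) and 9.52% of the 21 X-linked protein-coding genes inside these deletions were called. Thus 1 of the 9 members was called, a share not far from these backgrounds. Taken singly within the batch, AB gave 0.54 (adjusted p = 0.0148, edgeR quasi-likelihood test with Benjamini-Hochberg adjustment) and B 0.25 (adjusted p = 0.334), both against the same lines with both copies. Fitted without the AB library Rbm10 was at 0.30 and did not pass (adjusted p = 0.219), so that the call rests on this 1 library, whereas without B it was at 0.57 (adjusted p = 0.0101, edgeR quasi-likelihood test with Benjamini-Hochberg adjustment). Allelic reads could not follow this change, because Rbm10 had 24 allele-assigned counts over the 4 XX libraries.

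Ddx3x had a like per-copy value of 0.41 in its single covering library, but a wider interval of 0.16 to 0.67, and did not pass after adjustment (adjusted p = 0.0774, edgeR quasi-likelihood test with Benjamini-Hochberg adjustment; 2.67% of genes called). It passed with DESeq2 (0.0417) and when genes of low level were kept in the test (0.000573). It also passed without F replicate 1 or without I-TEL replicate 2. With only XX Rnf12 +/-, of another library batch, as the reference, the value reversed to -0.22. Without any 1 of the 19 libraries with both copies, the estimate within the batch stayed between 0.39 and 0.44. AB, the only library with 1 copy, could not be left out, so that these fits do not show how far the value rests on it. On the Cast allele alone Ddx3x was 0.34 higher (unadjusted p = 0.0220, adjusted p = 0.382, edgeR quasi-likelihood test; 0.278% of genes called).

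The other 7 members had per-copy changes from -0.20 to 0.13, none of which passed. Eif2s3x was at 0.13 (interval 0.00 to 0.27; 5.07% of genes called), and passed at 0.23 without F replicate 2 (adjusted p = 0.0197, edgeR quasi-likelihood test with Benjamini-Hochberg adjustment). Eif1ax was at 0.06 (-0.05 to 0.18; 17% called) and Hnrnph2 at 0.06 (-0.05 to 0.16; 35% called), the narrowest intervals of the set. Both lines that cover Hnrnph2 came from the second founder and its reference lines from the first, so that founder and copy number cannot be told apart for this gene. I-TEL, the line that covers Eif1ax, was also from the second founder, and with J, of the same founder, as the only reference Eif1ax was at -0.0795. Fmr1 was at 0.05 (-0.12 to 0.23; 2.96% called), Rbmx at 0.13 (-0.11 to 0.38; 6.27% called) and Nono at -0.08 (-0.28 to 0.12; 0.598% called). Rbm3 was the lowest, at -0.20 (-0.37 to -0.02; 9.53% called).

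The covering lines of a gene were also read singly, within the batch, and differences between them were not tested. Rbm3 was at 0.07 in A and at -0.43 in AB (adjusted p = 0.0582, edgeR quasi-likelihood test with Benjamini-Hochberg adjustment). Fmr1 was at 0.23 in C-G and -0.13 in E, and Rbmx at 0.33 in C-G and -0.09 in D. Fitted without 1 library, the mean turned its sign for Rbm3 without AB (0.0358), and for Fmr1 (-0.12) and Rbmx (-0.0786) without C-G. Eif2s3x gave 0.12 in both C-G and F, and Hnrnph2 gave 0.04 in I-TEL and 0.06 in J. Feeder fibroblast markers were read in the same contrasts, against the other lines of the batch. In the Hnrnph2 contrast 4 of the 6 markers tested were higher with a median of 1.14, where 35% of all genes were called. In the Eif1ax contrast 2 of 6 were higher with a median of 0.88, where 17% were called. In the Eif2s3x contrast 1 of 6 was lower, with a median of -0.99, where 5.07% of all genes were called. Their part in the values of these members was not tested.

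**Figure D2:**
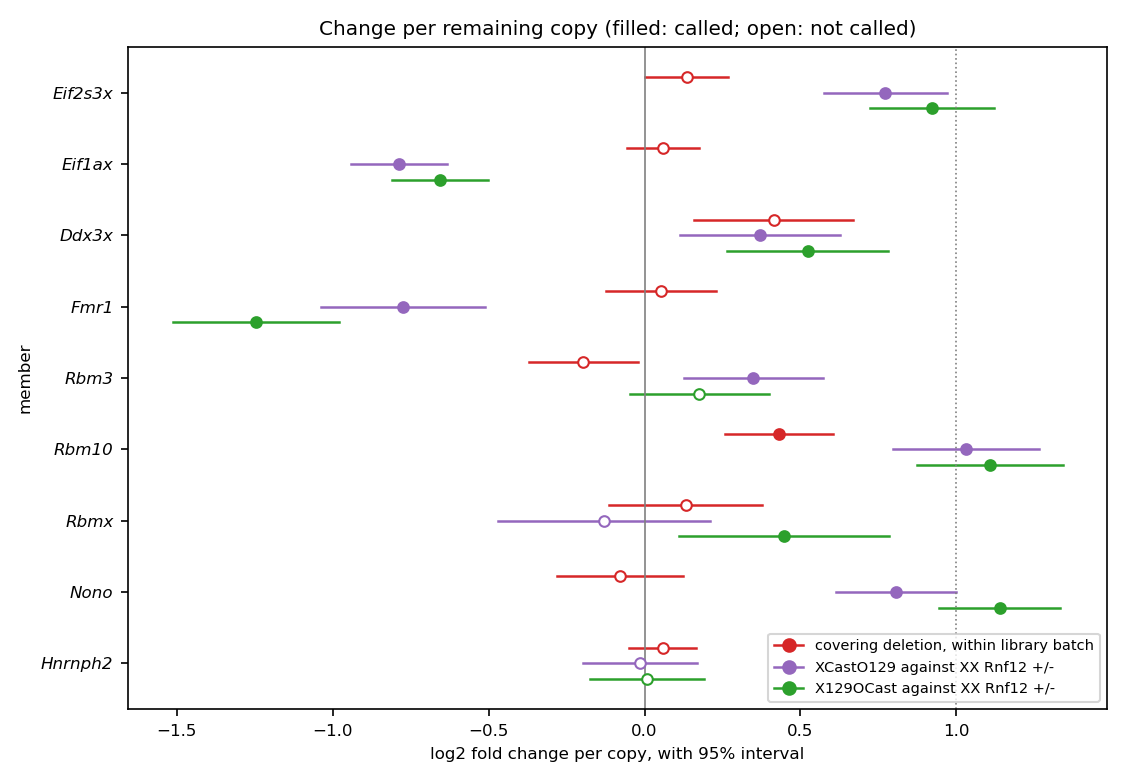
Per-copy log2 change of each member (y axis, genes) with its 95% interval (x axis, log2), for covering deletions against lines of the same batch with both copies, for XCastO129 and for X129OCast against XX Rnf12 +/-. Filled points passed the adjusted test, and 0 marks a level in proportion to dose. Under the deletions Rbm10 alone is filled at 0.43, while in the XO genotypes Rbm10, Nono and Eif2s3x lie between 0.77 and 1.14 and Eif1ax and Fmr1 between -1.25 and -0.66.

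Reads assigned to the Cast allele, which is intact in every deletion line, gave the same comparison without the deleted copy. Among the 7 members with enough Cast counts, 0 passed the edgeR quasi-likelihood test after adjustment, and DESeq2 also called 0. At an unadjusted threshold of 0.05 there were 2, Ddx3x as above and Rbm3 at -0.36. Of all genes, 0% were called in the Nono contrast, 0.458% in that of Eif2s3x, 0.514% for Rbmx, 1.17% for Fmr1, 1.39% for Rbm3 and 4.48% for Eif1ax. The remaining Cast values ran from -0.29 for Fmr1 (interval -0.75 to 0.17) to 0.15 for Eif2s3x (-0.07 to 0.37), with Eif1ax at -0.05, Rbmx at 0.03 and Nono at -0.15. The Cast counts behind them were small: for Rbmx 17, 23 and 29 counts in the covering libraries, and for Nono 146.

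Set against XX Rnf12 +/- in place of the lines of the same batch, the covering lines gave a different count. Of 15 pairs of a member and a covering line, 1 was higher per copy, Rbm10 in AB at 0.56 (adjusted p = 0.00909, edgeR quasi-likelihood test with Benjamini-Hochberg adjustment), and 5 were lower. The lower pairs were Rbmx in D at -0.71, Rbm3 in AB at -0.67, Hnrnph2 in I-TEL at -0.45 and in J at -0.43, and Eif1ax in I-TEL at -0.25, the last of which was lost without I-TEL replicate 1 (-0.20) or either XX Rnf12 +/- library (-0.25 and -0.24). The share of all genes called was 0.273% for E, which shared the batch of XX Rnf12 +/-. In the other batch it was 14.1% for C-G, 16.8% for AB, 18% for F and 18.5% for J. It was higher there for I-TEL at 23.3%, B at 25.2%, A at 31.6% and D at 32.9%. In that other batch, 94 pairs were of a line that kept both copies of the member. Of these 44 were lower than XX Rnf12 +/- as well and 0 were higher, so that batch and deletion cannot be told apart in this comparison. The shares above count both directions and leave out lines C, H, I and K, which are among these pairs. The count of 44 is therefore not read as a trait of the members.

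In the XO genotypes, which lack a whole X, some members had more and some less than their dose, and Hnrnph2 stood near it. Eif2s3x, Rbm10 and Nono did not pass as lower in total level. Rbm10 had 90.5 and 94.98 TPM in XCastO129 and 93.7 and 96.3 TPM in X129OCast, against 106.2 and 89.2 TPM in XX Rnf12 +/-, all within the XX range. Nono had 381.2 and 388.2 TPM, and 475.1 and 466.4 TPM, against 491.2 and 456.0 TPM, so that X129OCast overlapped XX Rnf12 +/- and XCastO129 lay below it. Eif2s3x had 140.5 and 147.2 TPM, and 150.7 and 159.2 TPM, all below the 173.9 and 188.6 TPM of XX Rnf12 +/-.

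On the total scale 6 of 9 members were lower in each XO genotype (edgeR quasi-likelihood test with Benjamini-Hochberg adjustment; 42.7% of genes called in XCastO129 and 54.6% in X129OCast). The other 3 were not called, namely Rbm10, at 0.03 and 0.11, Nono, at -0.19 and 0.14, and Eif2s3x, at -0.23 (adjusted p = 0.0592) and -0.08. Per copy, 5 members were higher and 2 lower in each genotype, in contrasts where 41.1% and 53.6% of all genes, and 47.1% and 61.2% of the 374 X-linked protein-coding genes, were called. By direction, 20.1% of all genes were higher and 21% lower in XCastO129, and 25.6% higher and 28% lower in X129OCast. The median over those X-linked genes was -0.15 and -0.22. A member called in these contrasts is thus no rare event, and both contrasts share the XX Rnf12 +/- libraries.

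Rbm10 was the highest per copy in XCastO129 at 1.03 (SE 0.111) and stood at 1.11 (SE 0.111) in X129OCast. Nono was at 0.81 and 1.14, and Eif2s3x at 0.77 and 0.92. Ddx3x was higher by less, at 0.37 (adjusted p = 0.0217, edgeR quasi-likelihood test with Benjamini-Hochberg adjustment) and 0.52, with 542.5 and 583.8 TPM, and 592.0 and 623.6 TPM, against 1017.2 and 857.8 TPM. Rbm3 passed in XCastO129 at 0.35 (adjusted p = 0.0139) and was at 0.18 in X129OCast (adjusted p = 0.172). Rbmx passed in X129OCast at 0.45 (adjusted p = 0.0249) and was at -0.13 in XCastO129. The XCastO129 calls were lost without replicate 2 of XX Rnf12 +/- (0.25 for Ddx3x and 0.23 for Rbm3) or of XCastO129 (0.32 and 0.24). The X129OCast call of Rbmx was lost without replicate 2 of XX Rnf12 +/- (0.38) or of X129OCast (0.26).

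Fmr1 and Eif1ax lost more than their dose. Eif1ax had 68.1 and 69.4 TPM in XCastO129 and 71.3 and 75.0 TPM in X129OCast, against 253.7 and 257.2 TPM in XX Rnf12 +/-. All 4 XO values were far below those of XX, at 26.9% and 28.6% of the mean, and per copy Eif1ax fell by 0.79 and by 0.66. Fmr1 had 28.1 and 31.2 TPM, and 20.2 and 21.3 TPM, against 101.5 and 116.9 TPM, or 27.1% and 19.0%. Per copy it fell by 0.78 in XCastO129 and by 1.25 in X129OCast. Hnrnph2 followed its dose, with 64.1 and 67.1 TPM, and 61.4 and 68.1 TPM, against 139.6 and 145.5 TPM, and per-copy values of -0.01 (interval -0.20 to 0.17) and 0.01 (-0.17 to 0.19). Of 10 stem cell markers, 1 was higher and 3 lower in XCastO129, and 1 higher and 4 lower in X129OCast. These shares were near the 41.1% and 53.6% of all genes called there. Nanog was among the lower markers, at -0.81 and -1.42. The part of cell state in the XO values of the members was not tested.

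The per-copy changes in XO cells and under a deletion were compared directly in the same fit, a test chosen after the values had been seen. For Eif2s3x the XO change exceeded the deletion change by 0.64 in XCastO129 and 0.79 in X129OCast, for Nono by 0.88 and 1.22, for Rbm10 by 0.60 and 0.68, and for Rbm3 by 0.54 and 0.37. For Eif1ax the XO change was lower than the deletion change by -0.85 and -0.72, and for Fmr1 by -0.83 and -1.30. All 12 passed (edgeR quasi-likelihood test with Benjamini-Hochberg adjustment), the highest adjusted p being 0.0343 for Rbm3 in X129OCast. Ddx3x did not pass, at -0.04 (interval -0.41 to 0.33) and 0.11 (-0.26 to 0.48), nor did Rbmx or Hnrnph2, the last at -0.07 (-0.28 to 0.14) and -0.05 (-0.26 to 0.16). In the same tests 19.5% to 44.9% of all genes were called for XCastO129 and 33.1% to 53.9% for X129OCast, and the XO arm differs from its reference also in batch and read type.

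Both XO genotypes shared a batch and a read type, which let the remaining 129 X be set against the remaining Cast X. X129OCast exceeded XCastO129 by 0.58 for Rbmx (adjusted p = 0.0358) and by 0.33 for Nono (adjusted p = 0.0296), and was lower for Fmr1 by -0.47 (adjusted p = 0.0279, edgeR quasi-likelihood test with Benjamini-Hochberg adjustment throughout), with 8.99% of all genes called. Rbmx had 15.0 and 18.4 TPM in XCastO129 and 21.2 and 27.2 TPM in X129OCast, without overlap. The other 6 members differed by -0.17 to 0.15. Since X129OCast also had 3.53 TPM of Rnf12 against 71.2 and 77.8 TPM in XCastO129, the remaining X and the loss of Rnf12 cannot be told apart. This comparison was also chosen after the values had been seen.

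Lines that kept both copies varied among themselves. Over the libraries of the deletion batch with both copies, the highest level was 2.62 times the lowest for Rbmx, 1.90 times for Ddx3x and 1.83 times for Rbm3, but 1.17 times for Nono. Over the libraries with both copies of the XX and deletion E batch the order was another, at 1.12 times for Rbmx, 1.28 for Ddx3x, 1.18 for Rbm3 and 1.48 for Nono. Each line was compared with the other lines of its batch for each member it did not delete, and 16 of 102 pairs passed, 9 higher and 7 lower (edgeR quasi-likelihood test with Benjamini-Hochberg adjustment). The share of all genes called was 41.6% for C, 21.1% for J, 17% for I-TEL, 14.5% for D, 9.66% for I, 7.31% for A, 5.34% for F, 4.9% for H, 2.67% for AB, 1.03% for K, 0.598% for C-G and 0.35% for B, and 2.86% for E against the XX libraries of its batch. None of the 16 concerned Eif2s3x, Fmr1 or Nono.

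Ddx3x was 0.38 higher in C, at 811.6 and 786.9 TPM, and changed by -0.47 in D, at 470.2 and 427.2 TPM. Rbmx changed by -0.46 in C, at 18.9 and 19.9 TPM, and by 0.49 in F and 0.56 in H, at 39.7 and 30.5 TPM and at 40.5 and 35.0 TPM. Rbm10 was -0.44 in A, at 77.8 TPM in its 1 library, although A ends before this gene. Rbm3 was 0.39 higher in K and 0.30 in F. Hnrnph2 changed by -0.34 in A, -0.23 in C, 0.29 in H and 0.27 in I, and Eif1ax by -0.26 in A, 0.28 in AB, -0.28 in C and 0.20 in F. Of these 16 calls 4 held without every library tried, namely Ddx3x in C, Eif1ax in C, Rbm10 in A and Hnrnph2 in A. The 1 library of A could not be left out, so that the calls in A met the removal of reference libraries only. The other 12 calls were lost without some library. For Ddx3x in D this was D replicate 2 (-0.38 without it). For Rbmx in C and H, Rbm3 in K and Hnrnph2 in H and I it was either clone of the line itself, with values without it of -0.42 and -0.50, 0.44 and 0.67, 0.41 and 0.39, 0.28 and 0.31, and 0.29 and 0.26 in that order, and for Hnrnph2 in C it was C replicate 2 (-0.19). In F the calls of Rbmx, Rbm3 and Eif1ax were lost without F replicate 1 (0.26, 0.22 and 0.14) and also without B (0.42, 0.26 and 0.19). There Rbm3 was also lost without AB (0.27), and Eif1ax without A, H replicate 1 or J replicate 1 (0.18 to 0.20). Those of Eif1ax in A and AB were lost without any of 7 and 8 libraries, at values from -0.27 to -0.24 and from 0.26 to 0.29.

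**Figure D3:**
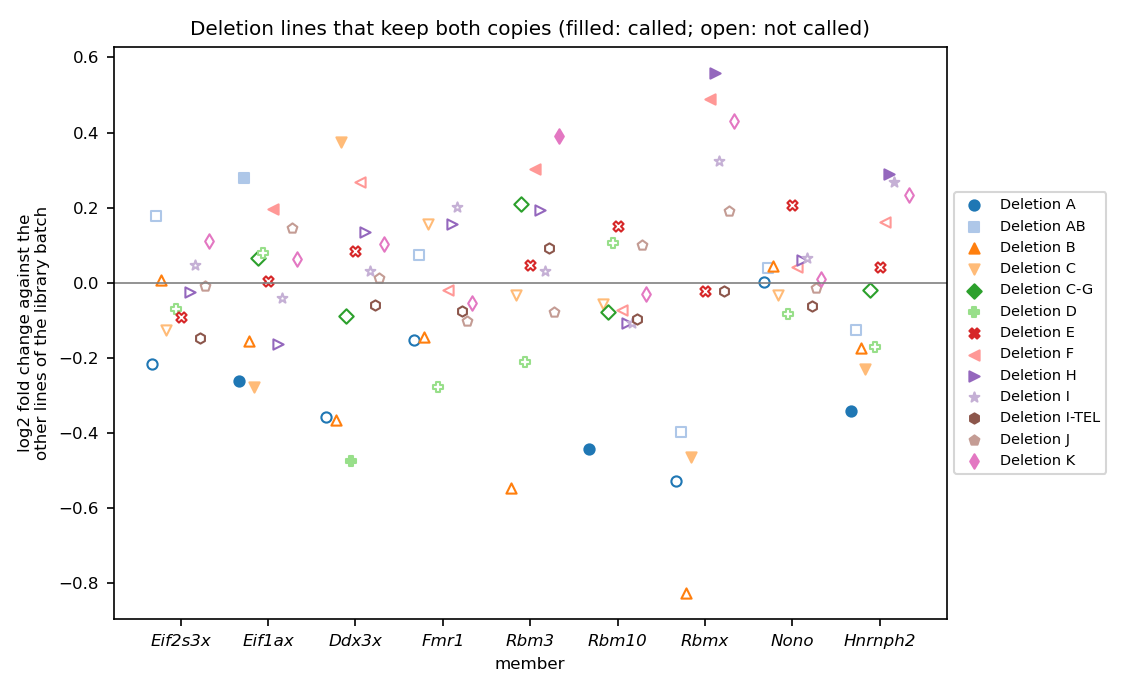
Log2 change (y axis) of each member (x axis, genes) in each deletion line that keeps both its copies, against the other lines of the same batch. Points are lines and filled points passed the adjusted test, 16 of 102. Rbmx and Ddx3x spread widest, with called values from -0.47 to 0.56, and no point is filled for Eif2s3x, Fmr1 or Nono.

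The allele-assigned reads of the members were also counted by the X of their assignment. Summed over the members, 0.860% of 2209 allelic counts came from the 129 X where a deletion covered the gene, 46.2% in deletion lines with both copies, 45.6% in XX and 99.8% in X129OCast. In XX cells Rbmx was at 50.3% 129 (Wilson 95% interval 46.1 to 54.4), Eif1ax at 49.7% (48.1 to 51.4) and Ddx3x at 47.8% (46.1 to 49.4). Rbm3 was at 41.0% and Fmr1 at 38.4%, whereas Nono leaned to the 129 allele at 60.8% (59.1 to 62.5). The assigned counts of Eif2s3x were mostly Cast, with 19.9% 129 (18.4 to 21.5). Those of Hnrnph2 were mostly 129, with 340 of 362 counts or 93.9% (91.0 to 96.0). These intervals cover counting error only.

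The share of counts that could be given an allele also depended on the genotype and the batch. For Eif2s3x, 28.2% of counts were assigned in XCastO129 and 14.4% in X129OCast, in libraries read in the same way, and 14.0% in XX. Hnrnph2 had 0.871% assigned in XCastO129, 0.330% in X129OCast and 2.54% in XX. Ddx3x had 2.81% assigned in XX but 9.34% in XCastO129 and 11.1% in X129OCast, and Nono 6.42%, 7.90% and 13.0%. For these genes, unequal output of the X chromosomes in XX cells and unequal assignment of their reads cannot be told apart.

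The same shift touches the Cast comparison of XCastO129 with XX Rnf12 +/-. Of 7 members, 2 were higher on the Cast allele, Ddx3x at 1.14 and Nono at 0.67, and 2 lower, Eif1ax at -0.57 and Fmr1 at -1.57 (edgeR quasi-likelihood test with Benjamini-Hochberg adjustment; 28.1% of all genes and 34.4% of 212 X-linked genes called). Without XX Rnf12 +/- replicate 1 Eif1ax did not pass (-0.39), and without replicate 2 Nono did not (0.53). Eif2s3x was at 0.21, Rbm3 at -0.06 and Rbmx at -0.37, and Rbmx passed without XCastO129 replicate 2 (-0.83). Over all genes, 12.5% of counts were assigned to an allele in both XX Rnf12 +/- libraries, and 21.9% and 22.0% in XCastO129. Library factors of the Cast counts take up this difference, and those of the total counts leave it in the values. With factors of the total counts, Eif1ax turned to 0.28 and was not called. Ddx3x was then at 1.99, Nono at 1.52 and Fmr1 at -0.73, and Eif2s3x (1.07) and Rbm3 (0.80) passed as higher. For Ddx3x the Cast value of 1.14 stands beside a per-copy value of 0.37 from all reads and an assigned share that was higher in XO than in XX, and the part of the assigned share was not tested.

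**Figure D4:**
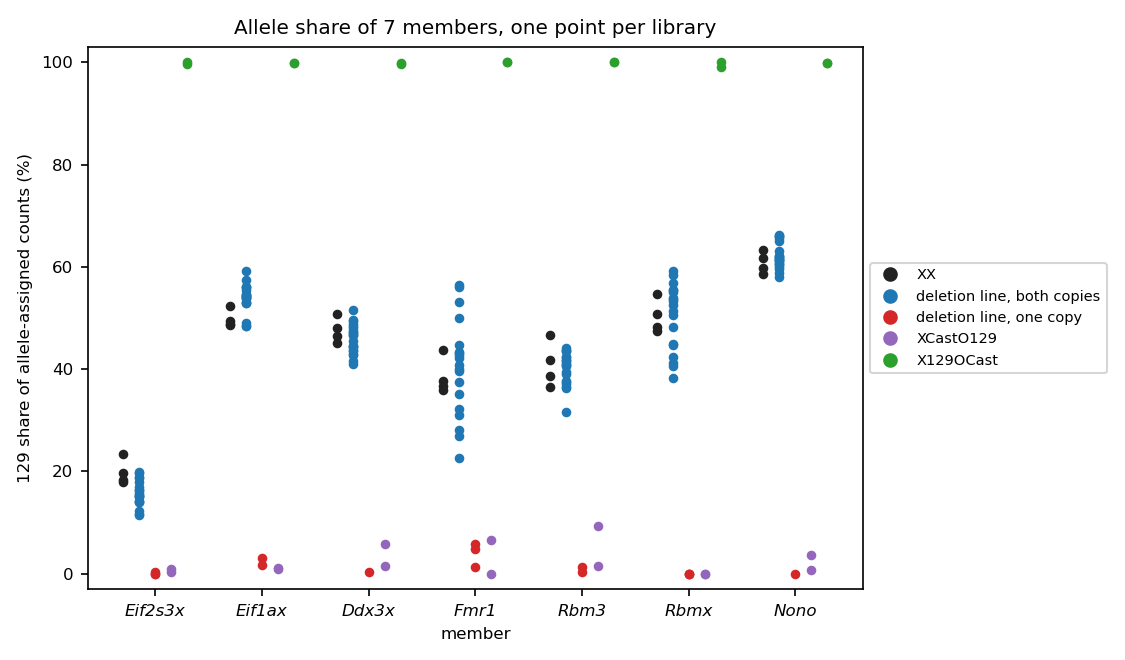
Share of allele-assigned counts from the 129 X (y axis, percent, 0 to 100) for the 7 members with enough allelic counts, 1 point per library, by genotype. Libraries with a covering deletion and XCastO129 lie low, with Rbm3 in XCastO129 replicate 1 at 9.37%, and X129OCast lies near 100. Pooled over XX libraries the share was 19.9% for Eif2s3x and 60.8% for Nono. Pooled over deletion lines with both copies it was 16.2% and 61.9%.

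In XCastO129, which by its label lacks the 129 X, some 129 reads remained. Replicate 1 had 4.02% 129 over the members and replicate 2 had 1.67%. In replicate 1 Rbm3 had 73 of 779 counts (9.37%, interval 7.52 to 11.6) and Ddx3x 75 of 1286 (5.83%, 4.68 to 7.25), while replicate 2 had 1.59% and 1.52%. Nono had the reverse order, 0.749% in replicate 1 and 3.61% in replicate 2. Over the X-linked genes with allelic counts, replicate 1 had 10.7% 129 in the first 20 Mb of the chromosome (46 genes), 5.82% from 20 to 100 Mb and 1.60% beyond 100 Mb. Replicate 2 had 4.02%, 7.44% and 2.21% in the same regions, so that no single gradient along the chromosome held for both.

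Paralogs of the members were looked at as other sources of the same kind of protein. Eif2s3y and Ddx3y, the Y partners, stayed at or below 6.01 and 5.37 TPM in every library of these female cells. Of 15 paralogs tested, 5 were higher and 3 lower in XCastO129, and 8 higher and 3 lower in X129OCast, beside the 41.1% and 53.6% of all genes called there. Hnrnpf, a splicing relative of Hnrnph2, was higher by 1.29 and 1.37, and Rbmxl1, a retrogene of Rbmx, by 1.32 and 1.47. Rbm5, a relative of Rbm10, was higher by 0.42 and 0.68, and Pspc1, a paraspeckle partner of Nono, by 0.32 and 0.37. Eif1a was at -0.40 and -0.68 and Fxr1, a relative of Fmr1, at -0.23 and -0.35.

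Under the deletions, in the Hnrnph2 contrast 3 of 15 paralogs were higher and 3 lower, where 35% of all genes were called, and Hnrnph1, the autosomal relative, was higher by 0.31. Eif1ax and Eif1a, and Rbmx, Rbmxl1 and Rbmxl2, are nearly alike in sequence, so that counts shared between them are uncertain.

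The wider pathway lists held calls in both directions, to be read against the 41.1% of all genes called in XCastO129 and the 53.6% in X129OCast. Of 40 initiation factors, 11 were higher and 8 lower in XCastO129, and 16 higher and 6 lower in X129OCast, with Eif4h at 0.93 and 1.80, Eif3b at 0.70 and 1.24, Eif4g3 at 1.06 and 0.76 and Eif4ebp2, an inhibitor of cap binding, at 0.48 and 1.00. Of 21 ribonucleoprotein and paraspeckle genes, 4 were higher and 5 lower, and 8 higher and 4 lower, with Matr3 at -1.03 and -1.16 and Hnrnpa0 at -1.04 and -0.81, Hnrnpa1 at 0.56 and 0.74 and Syncrip at -0.48 and -0.58. Of 21 other X-linked RNA genes tested, 5 were higher and 7 lower per copy, and 10 higher and 8 lower, beside 47.1% and 61.2% of the 374 X-linked genes. Among these were the ribosomal protein genes Rpl10, at 0.74 and 0.84, and Rps4x, at 0.80 and 0.76, Mcts1, a factor of reinitiation, at -0.88 and -1.36, and Nxt2, a factor of RNA export, at -1.41 and -1.39.

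Among the partners of the initiation factors, calls were also counted under the deletions. Of the 40 initiation factors, 1 was called in the Eif2s3x contrast, as higher, where 5.07% of all genes were called. In the Ddx3x contrast 1 was higher and 1 lower, where 2.67% of all genes were called. In the Eif1ax contrast 7 were higher and 6 lower, with 17% of all genes called there.

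Genes most like each member over the 30 libraries were found by Pearson's r of log2(TPM + 1), given as a description, since the libraries share deletions, batches and depth. Among X-linked genes Fmr1 was most like Vbp1 (r = 0.96), Eif1ax most like Rab9 (0.96) and Hnrnph2 most like Morf4l2 (0.92). Rbmx was most like Nkrf (0.87), Rbm3 most like Otud5 (0.84), Ddx3x most like Rbmx (0.75), Eif2s3x most like Tab3 (0.72), Nono most like its neighbour Zmym3 (0.67) and Rbm10 most like Gripap1 (0.60). Among autosomal genes the highest values were 0.93 for Ddx3x with Serp1 and for Fmr1 with Cept1, and the lowest 0.63 for Nono with Pde4d.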

How the data were processed

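RNA of 30 mESC libraries was measured by stranded RNA-seq with reads of 50 bases. The deposited table gives counts per gene that were not normalized, in 90 columns (all reads, 129 reads and Cast reads of each library), of which 0 had no sample. The authors trimmed reads with Trim Galore 0.6.7, used HISAT2 2.2.1 for alignment to a version of mm10 masked at strain variants, SNPsplit for alleles and SAMtools 1.10 for merging. As counter, the study's methods name featureCounts with exons of an Ensembl annotation, and the submitters' processing notes name HTSeq 0.12.4. Reads without a strain variant have no allele, so that allelic counts are a small part of all counts and limit the Cast tests.

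Identifiers of 55240 of 55421 genes matched GENCODE M21, and the other 181 held at most 0.004% of a library's counts. In 354 pairs of a gene and a library, allelic counts exceeded the total and were kept as deposited. TPM were computed from counts and exon length. The members had 151 to 35516 counts per library, the fewest for Rbmx and the most for Ddx3x. Copy number followed the deletion borders given by the study. Tests were those of edgeR 4.0.16 (quasi-likelihood) in R 4.3.3 on 11703 genes with a mean above 5 TPM in XX Rnf12 +/-, fitted on all 30 libraries with 1 term for each of 17 conditions, an offset that held the log copy number, and TMM scaling on the autosomes, with Benjamini-Hochberg adjustment over these genes at a level of 0.05. The total scale leaves the copy number out. Cast counts were fitted without X129OCast, for 7203 genes that reached 20 Cast counts in each XX Rnf12 +/- library. DESeq2 1.42.0, other filters and library factors, other references, a replicate block and leaving out each library were alternatives. Python 3.11.15 was used with numpy 2.4.6, scipy 1.17.1, pandas 2.3.3 and matplotlib 3.10.9.

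Tested on simulated data, the Rbm10 contrast called 89 of 100 genes changed by 1 on the log2 scale, the Nono contrast 72 and the XCastO129 contrast 78, each on 11703 genes. The simulated libraries held no batch or line differences beyond copy number and the planted changes. Changes smaller than 1, such as the per-copy values under the deletions, were not simulated, so that the power for them is not known. No 2 libraries of a group agreed within sampling noise. Members, lists and the tests of differences were chosen with earlier results of these data known. Named were the 9 members, their paralogs where measured, and up to 4 genes of each list with the largest called changes.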

Additional observations from a re-analysis of the deposited data

Results flagged for a closer look

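For 6 members the per-copy change in XO cells against XX Rnf12 +/- differed from that under the covering deletion, in the same fit (edgeR quasi-likelihood test with Benjamini-Hochberg adjustment). In XCastO129 the differences were 0.638 for Eif2s3x, -0.847 for Eif1ax, -0.829 for Fmr1, 0.545 for Rbm3, 0.601 for Rbm10 and 0.884 for Nono. In X129OCast they were 0.787 for Eif2s3x, -0.716 for Eif1ax, -1.30 for Fmr1, 0.372 for Rbm3, 0.677 for Rbm10 and 1.22 for Nono. Between 19.5% and 53.9% of all genes were called in these tests, and the XO genotypes cannot be told apart from their batch and read type. In XCastO129 replicate 1, 5.83% of the allelic counts of Ddx3x and 9.37% of those of Rbm3 came from the 129 X, above the 0.366% and 0.870% in lines in which a deletion covered these genes. Their source was not tested.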

How the results depend on the processing

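The Rbm10 gain under its covering deletions kept its direction and passed in 9 of 9 alternatives (0.39 to 0.44, adjusted p 0.000369 to 0.0120) and without 19 of 20 libraries. Without AB it did not pass (0.30, adjusted p = 0.219, edgeR quasi-likelihood test), and then 0 of the 8 members with a value were called. The number of members called per copy within batches was 1, and became 2 with DESeq2, 2 without a filter on low levels and 5 with only XX Rnf12 +/- as the reference. Without any 1 library that left all 9 members a value it ranged from 1 to 2, and for XX Rnf12 +/- against XX wild type from 0 to 1, Nono without XX wild type replicate 1. With only XX Rnf12 +/- as the reference, per-copy values reversed for Eif1ax (-0.25), Ddx3x (-0.22), Fmr1 (-0.29), Rbmx (-0.51) and Hnrnph2 (-0.44), and with J as the only reference for Eif1ax (-0.0795). With XX wild type as the reference, Eif2s3x reversed in C-G (-0.0482) and F (-0.0489) and Hnrnph2 in XCastO129 (0.20). Hnrnph2 also changed sign in XCastO129 with TMM of all genes (0.00838) and in X129OCast without a filter (-0.0293), values near 0 in either case. With library factors of the total counts, the Cast values in XCastO129 reversed for Eif1ax (0.28), Rbm3 (0.80) and Rbmx (0.48). These factors leave in the larger allele-assigned share of XCastO129, at 21.9% and 22.0% of counts against 12.5% in XX Rnf12 +/-. Fitted on only the 2 groups compared, Ddx3x (adjusted p = 0.0985) and Rbm3 (0.154) in XCastO129 and Rbmx in X129OCast (0.0615) no longer passed (edgeR quasi-likelihood test). For the reversals and lost calls the cause was not tested.

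Leaving out 1 library changed the sign of values near 0: Eif2s3x in F against XX Rnf12 +/- (-0.0832 to 0.280), within batches Fmr1 (-0.12 to 0.114), Rbm3 (-0.43 to 0.0358) and Rbmx (-0.0786 to 0.17), Hnrnph2 in X129OCast (-0.0652 to 0.0792) and in XCastO129 (-0.0438 to 0.0152), Rbmx in XCastO129 (-0.28 to 0.00511), and on the Cast allele Rbm3 in XCastO129 (-0.22 to 0.0848) and Rbmx within batches (-0.21 to 0.13). Correlations of same-numbered deviations ran from -0.35 to 0.70 over 78 pairs of conditions, with a median of 0.02 and 14 above 0.1. The highest was that of XX wild type and XX Rnf12 +/-, whose same-numbered libraries thus moved together, a pairing that the main test left out. In that comparison the replicate block also called 0 of 9 members (Hnrnph2 at 0.22, adjusted p = 0.251, and Eif2s3x at -0.16, adjusted p = 0.476, edgeR quasi-likelihood test). With the replicate number as a block, 1 member was still called per copy within batches, Rbm10 at 0.39, and 2 line calls did not pass, Eif1ax in A (-0.25) and in AB (0.29). A single covering clone, as for Ddx3x and Nono, is assumed to vary like the other groups.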
